A study of Mus musculus with 12 samples.

Results

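The cytochrome P450 family 2 is the set of genes whose symbols begin with Cyp2, followed by a subfamily letter and a number. The count files listed 52636 genes, of which 52403 had a mouse symbol, and 47 of those were Cyp2 genes other than pseudogenes. The 36 with 10 or more counts in at least 3 of the 12 libraries are described here. Cyp2g1 and Cyp2j8 were just inside this limit, with 10 or more counts in exactly 3 libraries. Cyp2c65, Cyp2d34 and Cyp2t4 were just outside it, with 1 such library each. Of the 11 Cyp2 genes left out, 7 had no count in any library and none had more than 25 in one. No test of a difference entered this choice, but such a count rule can admit a gene through the group where it is high. Cyp2g1 met it only through the 3 p53 knockout libraries on normal diet, and Cyp2a4 only through p53 knockout libraries. Cyp2b9 met it only through libraries on HFD, the diet set out below. The direction of such differences in these 3 genes is therefore partly set by the rule. The 36 genes belong to 11 subfamilies: 13 are Cyp2c, 7 are Cyp2d, 4 each are Cyp2a and Cyp2j, 2 are Cyp2b, and Cyp2e, Cyp2f, Cyp2g, Cyp2r, Cyp2s and Cyp2u have 1 each.

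Total RNA was sequenced from liver of C57BL/6 mice aged 12 weeks, in 12 libraries. They form 4 groups of 3: p53 wild type (wt) and p53 knockout (ko), each on normal diet and on HFD, taken here to be a high-fat diet. The series is titled for a link between p53 and the cholesterol synthesis gene Sqle, and its design sets the genotypes against each other with or without HFD. The sources used here give neither the p53 allele, nor whether the loss was in the whole body or in liver alone, nor the length of the diet, the sex or the hour of sampling.

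Cytochrome P450 enzymes are heme proteins of the endoplasmic reticulum that insert an oxygen atom into a substrate, with electrons passed on by the reductase Por. Family 2 is the large drug- and steroid-metabolising family of the liver, and its Cyp2c, Cyp2d and Cyp2j enzymes also act on fatty acids, steroids or bile acids. The nuclear receptors Nr1i3 (CAR) and Nr1i2 (PXR) are known to switch on Cyp2b10 and several Cyp2c genes, Hnf4a sustains many of them in hepatocytes, and a number are known to differ between male and female liver or over the day.

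The libraries held 15465187 to 20492567 counts each. Trp53, the gene for p53, stood at 8.54 to 24.5 CPM (normalised read counts, scaled to library totals) in the 6 wt libraries and at 0.273 to 1.62 CPM in the 6 ko libraries. All 3 libraries that stood apart are in different groups: wt normal replicate 2 carried 2816 CPM of the muscle actin gene Acta1, against at most 2.46 CPM elsewhere, and mitochondrial genes took 14.6% of the counts of ko normal replicate 1 and 10.3% of those of ko HFD replicate 2, against 4.18% to 7.22% elsewhere. Hepatocyte markers were present in every library, with a summed level of 53652 to 75256 CPM in wt and 85763 to 98667 CPM in ko libraries. Y-linked Ddx3y was read in all 12 libraries, at 28.2 to 49.1 CPM, and Xist at 0.752 CPM or less. Nothing in the labels ties the 3 replicates of a group to different animals. The p-values below therefore rest on the variation among libraries, part of which may be technical.

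Many Cyp2 genes are near copies that sit side by side, which bears on how far reads can be assigned to one of them. In gene models of GENCODE release M21 on build GRCm38, Cyp2a5 (chromosome 7, 26835305 to 26843548) and Cyp2a4 (chromosome 7, 26307169 to 26315088) differ at 23 of 1485 coding bases. The stretch of their coding sequences from base 580 to base 669 is shown because it holds 5 of these differences, in capitals, and it is by such bases that a read can be given to one gene or the other.
Cyp2a5: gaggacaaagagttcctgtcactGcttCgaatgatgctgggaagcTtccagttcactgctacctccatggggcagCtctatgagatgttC
Cyp2a4: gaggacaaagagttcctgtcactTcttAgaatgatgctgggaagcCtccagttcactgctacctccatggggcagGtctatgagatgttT
Of the 50-base stretches in Cyp2a5 transcripts, 37.0% occur in another gene too. That share was 60.3% for Cyp2c40, 54.3% for Cyp2c69, 52.8% for Cyp2c67, 30.1% for Cyp2c37, 25.7% for Cyp2c54, 12.3% for Cyp2u1, 9% for Cyp2f2, 4.13% for Cyp2d22, 3.91% for Cyp2e1 and 0 for Cyp2c23. How the counting treated reads that match more than 1 gene is not stated in the labels, so values of the genes with high shares are uncertain.

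The likeness extends upstream. Cyp2a5 and Cyp2a4 differ at 4 bases, with 98.4% identity, over the 250 bases before their RefSeq start sites, build GRCm38.p6, although their levels differ widely. The last 100 bases before each RefSeq start are shown, with the C/EBP motif TTGCATAA and the TATA box TATAAA in capitals. They lie at chr7:26835239-26835338 for Cyp2a5 and chr7:26307092-26307191 for Cyp2a4, both on the plus strand. RefSeq and GENCODE place the start differently, and the GENCODE models given above begin inside both stretches.
Cyp2a5: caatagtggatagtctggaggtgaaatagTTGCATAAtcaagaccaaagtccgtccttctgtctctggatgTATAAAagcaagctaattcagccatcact
Cyp2a4: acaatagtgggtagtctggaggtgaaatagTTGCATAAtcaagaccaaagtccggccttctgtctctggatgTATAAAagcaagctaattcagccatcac
On chromosome 19, the promoters of Cyp2c40 and Cyp2c69 differ at 3 of 220 aligned bases, and Cyp2c67 and Cyp2c68 are near copies of both. The 150 bases before the start are shown for Cyp2c69, Cyp2c40 and Cyp2c67, since all 3 are described below, at chr19:39886770-39886919, chr19:39812815-39812964 and chr19:39649043-39649192 on the minus strand. The GENCODE models of Cyp2c69 and Cyp2c67 also begin inside these stretches, while that of Cyp2c40 does not. Capitals mark CAAAGTCCA, a core of the sites that Hnf4a can bind.
Cyp2c69: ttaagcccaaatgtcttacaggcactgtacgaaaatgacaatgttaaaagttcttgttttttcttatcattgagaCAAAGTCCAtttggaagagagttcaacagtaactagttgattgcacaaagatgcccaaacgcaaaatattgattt
Cyp2c40: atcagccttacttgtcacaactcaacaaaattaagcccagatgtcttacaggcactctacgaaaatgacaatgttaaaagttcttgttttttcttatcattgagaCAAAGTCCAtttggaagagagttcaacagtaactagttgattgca
Cyp2c67: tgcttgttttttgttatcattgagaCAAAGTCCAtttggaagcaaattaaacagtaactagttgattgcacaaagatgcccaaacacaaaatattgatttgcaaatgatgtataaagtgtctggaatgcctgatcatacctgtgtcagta
On both strands, CAAAGTCCA lay in 5 of the 31 promoters of 30 Cyp2 genes (Cyp2c40, Cyp2c67, Cyp2c68, Cyp2c69 and Cyp2c70), and in 0.384% of 32851 mouse promoters of the same 250 bases. TATAAA lay in 16 of the 31 and in 12.4% of all. A C/EBP motif (TTGCGCAA, TTGCACAA, TTGCATAA or TTGTGCAA) lay in 5 of the 31 and in 1.74% of all. The D-box of Dbp (TTATGTAA or TTACGTAA) lay in 0 of the 31 and in 0.931% of all, and the nuclear receptor motif AGGTCA in 6 and in 14% of all. The p53 half-site motif RRRCWWGYYY (R is A or G, W is A or T, Y is C or T) lay in 5 of the 31 and in 7.13% of all. Genes that are copies of each other share such matches, and a match is a string of letters, not a measured binding site.

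Per length, Cyp2e1 stood far above the rest. It encodes the enzyme that oxidises ethanol, acetone and acetaminophen, and its mean level over the 12 libraries was 3247 CPM per kilobase of exon. Next were Cyp2d26 at 679, Cyp2d10 at 627 and Cyp2d9 at 622 CPM per kilobase, then the naphthalene-oxidising Cyp2f2 at 276 and the coumarin hydroxylase Cyp2a5 at 158. The highest Cyp2c gene was Cyp2c37 at 137 and the highest Cyp2j gene was Cyp2j5 at 124 CPM per kilobase. The lowest was Cyp2g1, known from the olfactory mucosa, at 0.201 CPM per kilobase.

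**Figure D1:**
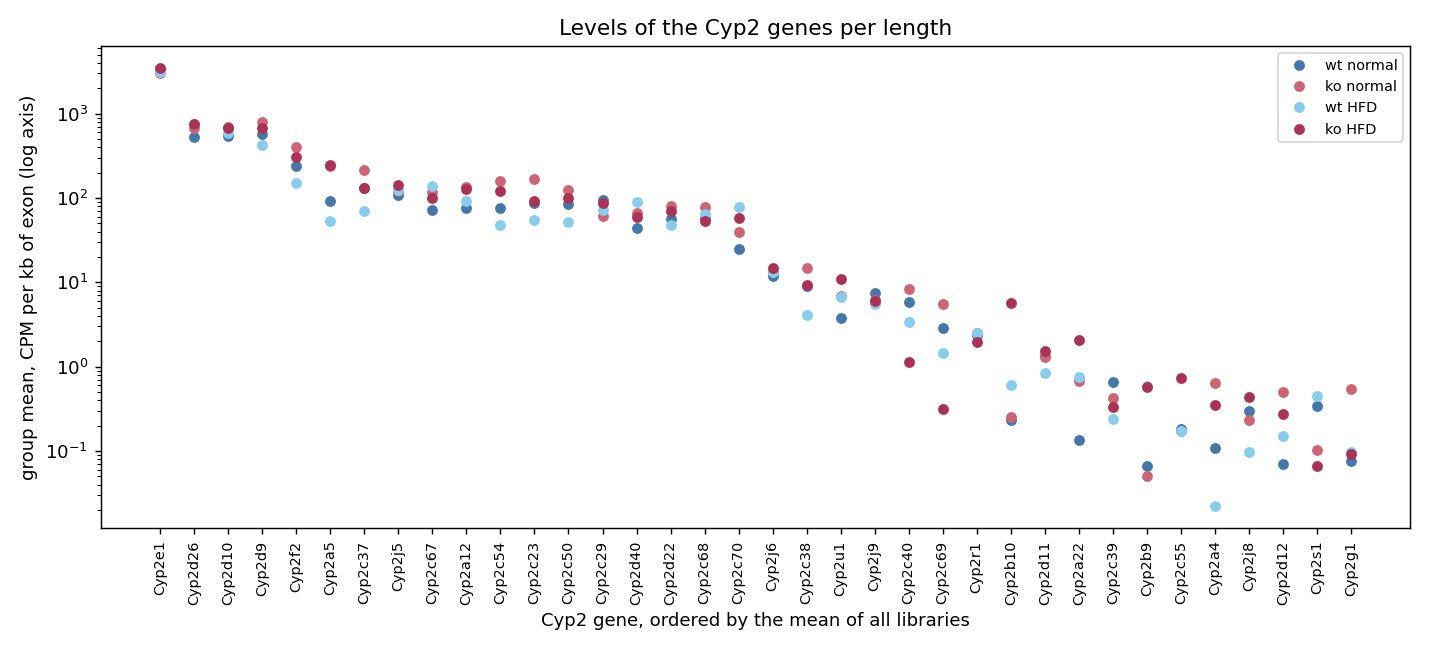
Mean level of each of the 36 Cyp2 genes in the 4 groups, in CPM per kilobase of exon on a log axis, ordered by the mean of all 12 libraries. Each dot is the mean of 3 libraries. The dots of Cyp2e1 lie together near 3247, while those of Cyp2a5, Cyp2c69 and Cyp2b10 spread between groups.

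Cyp2e1 was also among the steadiest genes of the family. Its level was 7313, 6478 and 7922 CPM in the wt normal libraries, 5104, 6994 and 7409 in ko normal, 6404, 7276 and 6548 in wt HFD and 7846, 6848 and 7933 in ko HFD. The groups overlapped in all 4 direct comparisons, and only ko normal replicate 1 fell below 6404 CPM. The ko change was 0.00 on the log2 scale (SE 0.147, adjusted p = 0.994 with edgeR's quasi-likelihood test, as for the other adjusted p-values below).

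The 36 genes together took 1.47 ± 0.0575% of the counts in wt normal, 1.55 ± 0.0695% in ko normal, 1.24 ± 0.0384% in wt HFD and 1.54 ± 0.0843% in ko HFD (SD, n = 3 each). With Cyp2e1 left out, the share was 0.692 ± 0.0328% in wt normal and 0.910 ± 0.0509% in ko normal, and 0.592 ± 0.0147% in wt HFD and 0.806 ± 0.018% in ko HFD. On that measure every ko library, from 0.789% to 0.967%, lay above every wt library, from 0.580% to 0.729%. In whole liver, fewer cells of a type and less RNA per cell cannot be told apart.

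**Figure D2:**
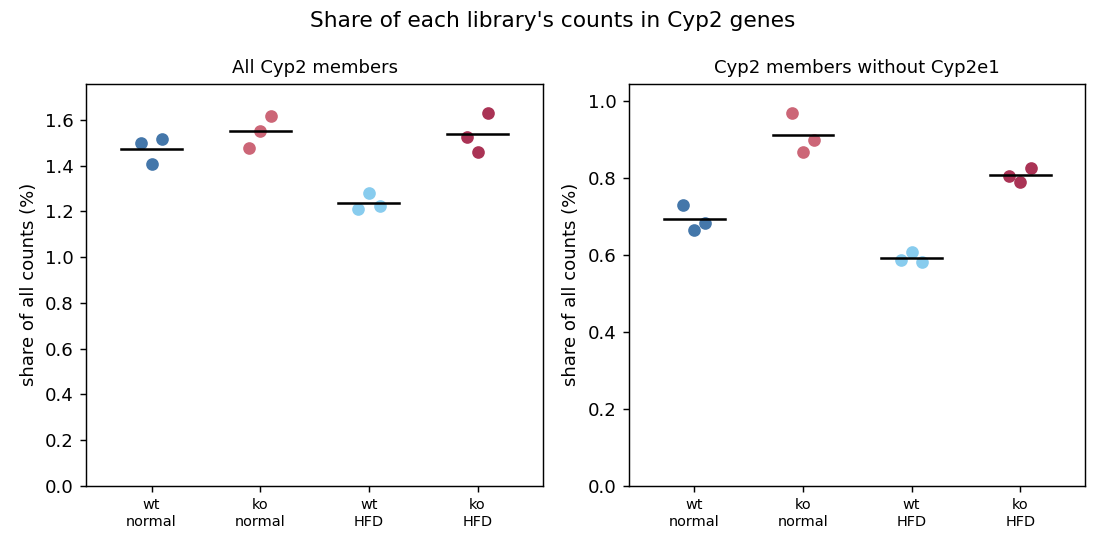
Share of each library's counts, in percent, that fell on Cyp2 genes, for all 36 members (left) and without Cyp2e1 (right). Dots are libraries, bars the mean of 3, and both axes start at 0. On the right, the 6 ko dots lie above the 6 wt dots.

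In p53 ko liver 6 Cyp2 genes were higher than in wt liver when the change was averaged over both diets, and none was lower. The 6 were Cyp2a5, Cyp2c54, Cyp2c23, Cyp2u1, Cyp2f2 and Cyp2d22, from 5 subfamilies, and their rises ran from 1.45-fold to 3.47-fold. They are 17.1% of the 35 members tested, where 1.16% of all 14433 genes were called, 0.79% higher and 0.374% lower. Cyp2j8 was too low to be tested. The median log2 change of the 35 was 0.41, beside -0.01 over all genes. The 35 include Cyp2a4 and Cyp2g1, which met the count rule only through ko libraries. Their positive signs here are partly set by that rule. At an unadjusted p under 0.05 there were 14 members higher and 1 lower, where 9.05% of all genes were higher and 9.66% lower by that rule. The 14 include Cyp2a4, which met the count rule only through ko libraries. DESeq2 called 12 members, with 6% of all genes.

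Cyp2a5 had the largest called rise. It stood at 142, 206 and 219.5 CPM in wt normal, 682, 377 and 446 CPM in ko normal, 157, 107 and 69.9 CPM in wt HFD and 708, 459 and 346 CPM in ko HFD. Each of the 6 ko libraries was above each of the 6 wt libraries, and wt HFD held the 2 lowest. The mean was 189 ± 41.7 CPM in wt normal against 502 ± 160.1 in ko normal, and 111 ± 43.8 in wt HFD against 504 ± 186 in ko HFD (SD, n = 3). Averaged over diets the rise was 3.47-fold (log2 1.79, SE 0.247, adjusted p = 0.00557).

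The 3 other Cyp2a genes did not pass the test, and all 3 had an unadjusted p under 0.05 with a positive sign. Cyp2a12, a hydroxylase of bile acids, stood at 437 to 482 CPM in the ko libraries and 195 to 397 CPM in the wt libraries without overlap (log2 0.65, SE 0.15, adjusted p = 0.0612). Cyp2a4, the steroid-hydroxylating copy of Cyp2a5, never exceeded 1.46 CPM or 26 counts (log2 3.13, SE 0.803, adjusted p = 0.0773). It met the count rule only through ko libraries, with at most 7 counts in a wt library. The positive sign of Cyp2a4 is therefore partly set by that rule. Cyp2a22, the near copy of Cyp2a12, stayed between 0.102 and 12.0 CPM (log2 1.91, SE 0.658, adjusted p = 0.148).

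Among the 13 Cyp2c genes, known for epoxides and hydroxylated products of arachidonic and linoleic acid, 2 rose. Cyp2c54 stood at 167, 101 and 137 CPM in wt normal, 438, 192 and 224 in ko normal, 68.1, 103 and 88.5 in wt HFD and 266, 194 and 184 in ko HFD. All ko libraries were above all wt libraries, with ko normal replicate 1 the highest, and the averaged rise was 2.29-fold (log2 1.20, SE 0.218, adjusted p = 0.0264). Cyp2c23, an arachidonic acid epoxygenase with no shared 50-base stretch, stood at 264, 161 and 139 CPM in wt normal, 451, 344 and 289 in ko normal, 112, 119 and 126 in wt HFD and 184, 212 and 207 in ko HFD. Within each diet the ko libraries were the higher ones, but ko HFD lay among wt normal libraries, and the rise was called (log2 0.85, SE 0.168, adjusted p = 0.0367).

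Cyp2c37, a copy of Cyp2c54 at 95.1% of coding bases, was not called. It stood at 256, 195 and 277 CPM in wt normal, 461, 285 and 422 in ko normal, 60.9, 150.4 and 175 in wt HFD and 239.9, 195 and 283 in ko HFD. Again the ko libraries were above the wt libraries of the same diet (log2 0.79, SE 0.234, adjusted p = 0.111). The adjusted p was 0.128 for Cyp2c50 and 0.191 for Cyp2c38, whose signs were also positive. Cyp2c29, by contrast, varied within groups: it was at 66.4 CPM in ko normal replicate 1, 49.9 in wt HFD replicate 1 and 65.6 in ko HFD replicate 2, and at 164 to 443 CPM in the other libraries.

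In the Cyp2d cluster on chromosome 15, 1 of 7 genes rose. Cyp2d22 was at 224, 208 and 229 CPM in wt normal, 384, 275 and 293 in ko normal, 203, 172 and 182 in wt HFD and 280.0, 282 and 257 in ko HFD. Every ko library was above every wt library, over a narrow range (1.45-fold, log2 0.54, SE 0.116, adjusted p = 0.0447). Cyp2d9, a testosterone hydroxylase known as male-biased, was at 1662 to 2532 CPM in ko and 921 to 1636 CPM in wt libraries, also without overlap, and was not called (log2 0.57, SE 0.152, adjusted p = 0.0892). Cyp2d26, the gene of the subfamily with the highest level per length, was at 1079.5, 839 and 927 CPM in wt normal, 982, 1402 and 1301 in ko normal, 1586, 1258 and 1171 in wt HFD and 1435, 1499 and 1122 in ko HFD. Its genotypes overlapped on both diets (log2 0.19, SE 0.148, adjusted p = 0.504).

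The other called rises were in single-gene subfamilies. Cyp2f2, which in liver is known for its periportal position, was at 468, 468 and 533 CPM in wt normal, 516, 1013 and 947 in ko normal, 322, 299 and 292 in wt HFD and 591, 443 and 817 in ko HFD. On HFD the groups were apart, while on normal diet ko replicate 1 lay among the wt libraries (1.85-fold, log2 0.89, SE 0.187, adjusted p = 0.0424). Cyp2u1, a hydroxylase of long-chain fatty acids, was at 22.9, 18.0 and 17.9 CPM in wt normal, 41.3, 35.6 and 32.1 in ko normal, 45.0, 36.3 and 24.3 in wt HFD and 44.7, 68.8 and 59.1 in ko HFD. The normal-diet groups were apart, and on HFD wt replicate 1 lay within the ko values (1.74-fold, log2 0.80, SE 0.162, adjusted p = 0.0388).

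**Figure D3:**
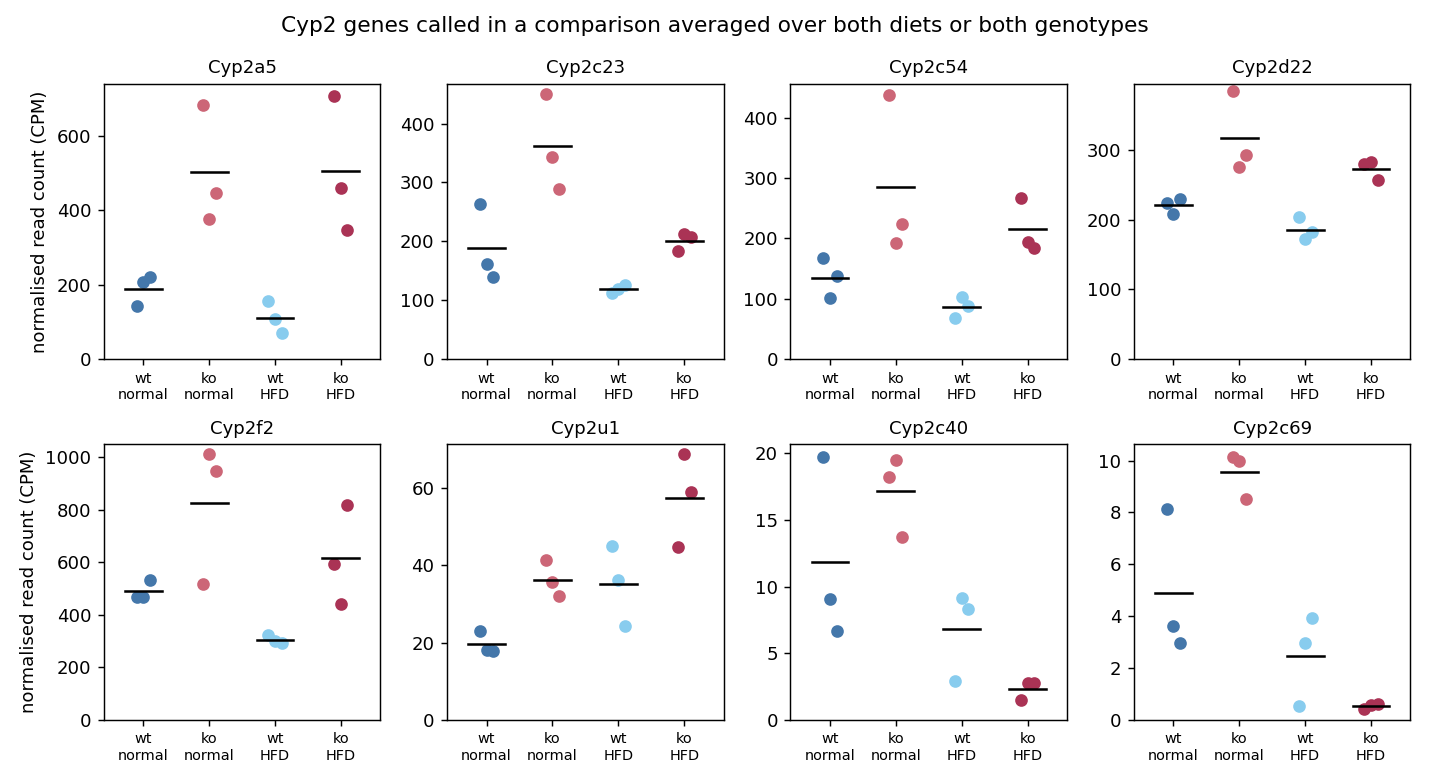
Level in every library, in CPM on axes from 0, of the 8 Cyp2 genes called in at least 1 comparison. Dots are libraries and bars group means of 3. For Cyp2a5, Cyp2c54 and Cyp2d22 all ko dots lie above all wt dots, while Cyp2c69 and Cyp2c40 are lowest in ko HFD.

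Members of the remaining subfamilies did not pass the test of the genotype. The epoxygenase Cyp2j5 was at 312, 191 and 259 CPM in wt normal, 204, 355 and 292 in ko normal, 275, 255 and 354 in wt HFD and 314, 277 and 411 in ko HFD, and its groups overlapped. The vitamin D hydroxylase Cyp2r1 was at 4.92, 4.71 and 5.57 CPM in wt normal, 4.64, 6.59 and 4.58 in ko normal, 4.69, 5.03 and 6.23 in wt HFD and 4.67, 3.63 and 4.26 in ko HFD. All 3 ko HFD libraries were below the wt HFD libraries, by a small margin. Cyp2s1, an enzyme of epithelia outside the liver, was at 0.800, 3.57 and 0.664 CPM in wt normal, 0.464, 0.699 and 0.382 in ko normal, 0.0601, 6.00 and 0.510 in wt HFD and 0.0584, 0.115 and 0.815 in ko HFD. Its 2 highest values were in wt normal replicate 2, the library with muscle transcripts, and wt HFD replicate 2.

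Across all 12 libraries, 5 members had every ko library above every wt library: Cyp2a5, Cyp2a12, Cyp2c54, Cyp2d9 and Cyp2d22. No member had the reverse, and 0.901% of all genes had the first pattern and 0.845% the second.

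Within a single diet no Cyp2 gene passed the edgeR threshold. On normal diet 0.208% of all genes did, and the member with the smallest adjusted p was Cyp2a5 at 0.0993 (2.65-fold, log2 1.41, SE 0.345), followed by Cyp2c23 (log2 0.94, SE 0.237, adjusted p = 0.103) and Cyp2u1 (log2 0.89, SE 0.231, adjusted p = 0.112). At an unadjusted p under 0.05 there were 13 members, all higher in ko, where 15.1% of all genes had such a p, 7.31% higher and 7.77% lower. DESeq2 called 7 members, with 3.69% of all genes. Each of 14 tested members had its 3 ko libraries above its 3 wt libraries and none below, where 11.4% of all genes had each pattern. The 13 and the 14 both include Cyp2a4 and Cyp2g1, which met the count rule only through ko libraries.

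On HFD, where 0.0693% of all genes were called, Cyp2a5 had an adjusted p of 0.0506 at 4.52-fold (log2 2.18, SE 0.354). Next were Cyp2c54 (log2 1.31, SE 0.31, adjusted p = 0.267) and Cyp2f2 (log2 1.02, SE 0.266, adjusted p = 0.323). The members with an unadjusted p under 0.05 were 13 higher and 2 lower, Cyp2c40 and Cyp2c69, where 8.85% of all genes had such a p, 4.5% higher and 4.35% lower. DESeq2 called 4 members, with 0.663% of all genes. All 3 ko libraries lay above the wt libraries for 12 members, a pattern of 6.7% of all genes, and below them for Cyp2c40 and Cyp2r1, a pattern of 6.85%. Cyp2a4, which met the count rule only through ko libraries, is in both the 13 and the 12.

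**Figure D4:**
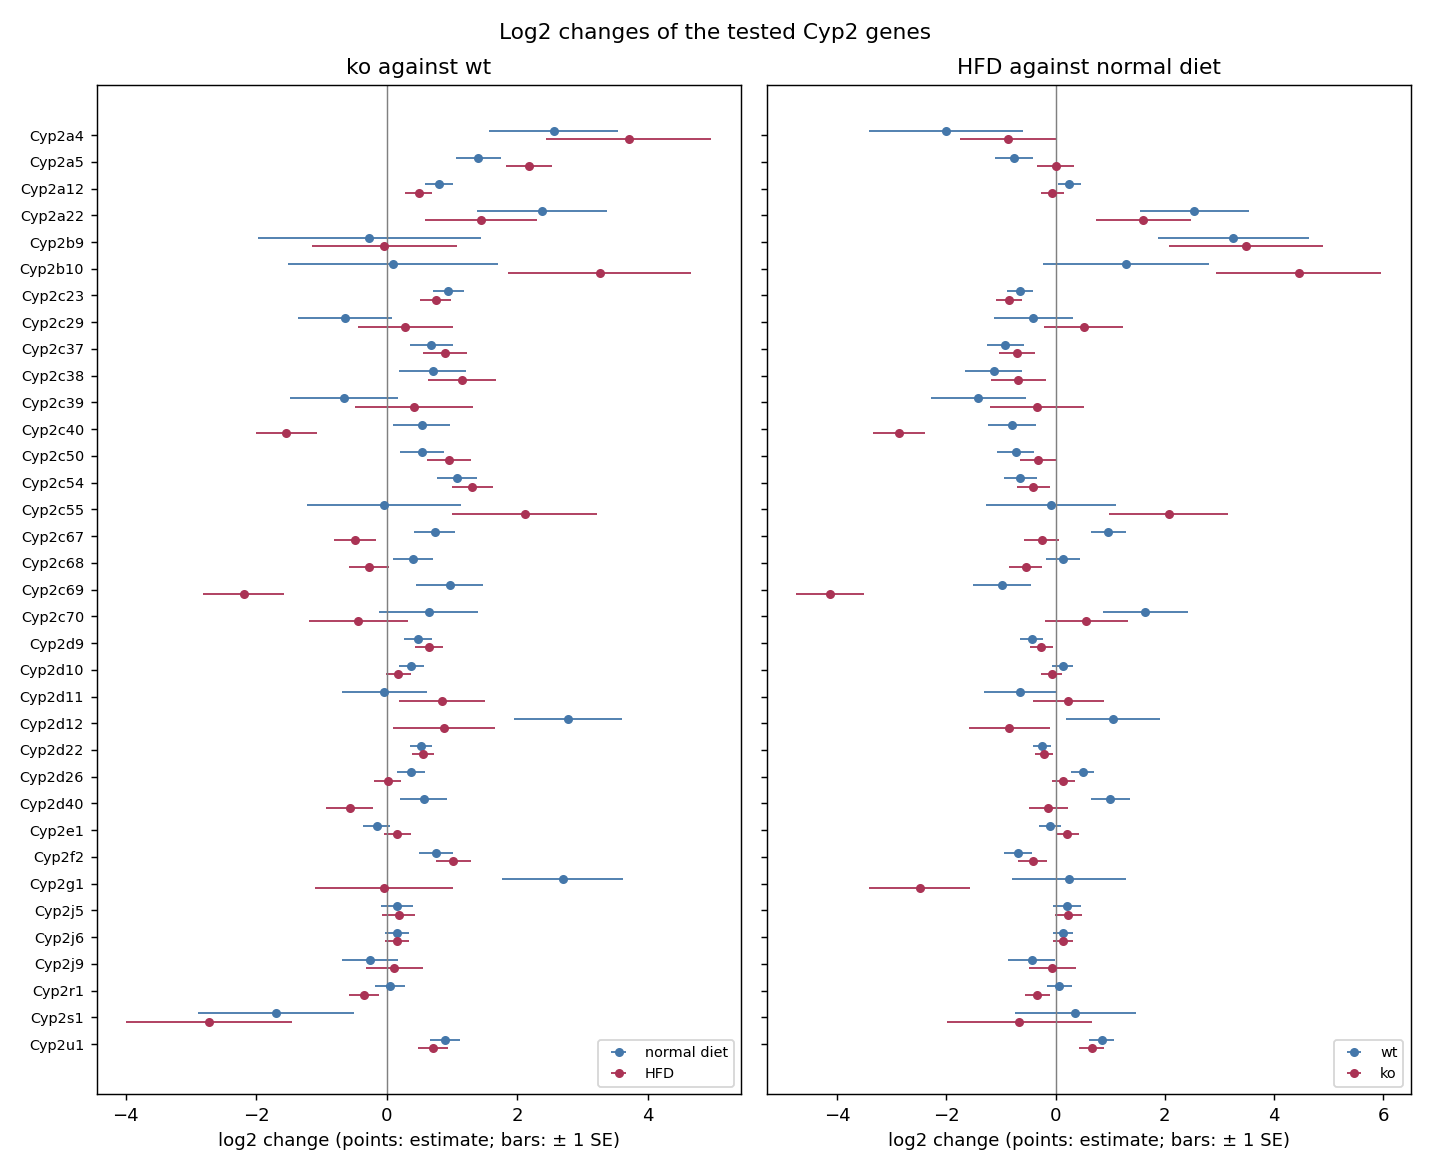
Fitted log2 change of the 35 tested Cyp2 genes for ko against wt on each diet (left) and HFD against normal diet in each genotype (right), as points with bars of 1 SE. Cyp2a5 lies at 1.41 on normal diet and 2.18 on HFD, and Cyp2c69 has its lowest point, -4.14, for HFD in ko.

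Other measures moved with genotype in the same libraries. Clock output genes differed: Dbp was at 2.04 to 13.5 CPM in wt normal, 97.3 to 191 in ko normal, 6.52 to 83.6 in wt HFD and 74.6 to 125 in ko HFD, and of 17 clock genes 3 (Dbp, Per2 and Hlf) were called higher and 1 (Arntl) lower in ko. A clock index, the mean log2 CPM of 5 clock output genes (Dbp, Per2, Per3, Tef and Hlf) minus that of Arntl and Npas2, was 0.102 to 2.94 in wt normal and 5.52 to 7.44 in the ko libraries. With this index as a covariate, an alternative chosen after seeing the data, no member was called for the genotype, and 25 of all genes were. The log2 change was then 1.005 for Cyp2a5 (adjusted p = 0.277) and 0.48 for Cyp2u1 (adjusted p = 0.498), below their values without the index. It was 1.22 for Cyp2c54, 0.92 for Cyp2c23, 1.03 for Cyp2f2 and 0.48 for Cyp2d22 (adjusted p = 0.26, 0.245, 0.225 and 0.374), close to or above their values without it. The index and the genotype largely go together in these libraries, so the loss of a call under it does not show that a change was absent. In wt HFD replicates 1, 2 and 3 the index was 6.24, 5.37 and 2.465, and Cyp2a5 was at 157, 107 and 69.9 CPM. In wt normal replicates 1, 2 and 3 the index was 1.24, 2.94 and 0.102, and Cyp2a5 was at 142, 206 and 219.5 CPM. Cyp2a5 thus followed the order of the index in wt HFD but not in wt normal.

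Cell-type markers moved too. Of 11 hepatocyte markers tested, 1 was called higher in ko (Alb, log2 0.86, adjusted p = 0.0391), with a list median of 0.12. The list medians were -0.71 for 11 endothelial markers, where Lyve1 was called lower, and -0.81 for 13 stellate and fibrosis markers, where Rgs5 was called lower. The part of clock state and of cell makeup in the Cyp2 changes was not tested beyond these values. Without the 3 libraries that stood apart, also chosen after seeing the data, 2 members were called for the genotype. When 1 library was left out in turn, 1 to 5 were called, with 1 remaining without wt normal replicate 2, wt normal replicate 3 or wt HFD replicate 3. The calls over all genes in these fits are not given here, so a loss particular to Cyp2 cannot be told from a general one. Cyp2a5 was called in 20 of 21 alternatives, Cyp2c54 in 16, and Cyp2u1, Cyp2c23, Cyp2f2 and Cyp2d22 in 9, 8, 8 and 7.

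On HFD 2 Cyp2c genes were lower and Cyp2u1 was higher than on normal diet, averaged over genotypes. The 3 are 8.57% of the 35 members tested, where 1.04% of all genes were called, 0.582% higher and 0.457% lower. The median log2 change of the members was -0.15, beside -0.02 over all genes. The members include Cyp2b9, positive here, and Cyp2g1, negative here, whose signs are partly set by the count rule. At an unadjusted p under 0.05 there were 4 members higher and 9 lower, where 9.06% of all genes were higher and 8.55% lower by that rule. The 4 include Cyp2b9, which met the count rule only through HFD libraries. DESeq2 called 6 members, with 5.63% of all genes.

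Cyp2c69 and Cyp2c40 are neighbouring copies on chromosome 19 (39842814 to 39886799 and 39767071 to 39812814), and the promoters printed above are theirs. Cyp2c69 was at 8.12, 3.62 and 2.96 CPM in wt normal, 10.1, 9.98 and 8.5 in ko normal, 0.541, 2.97 and 3.91 in wt HFD and 0.409, 0.576 and 0.627 in ko HFD, or 7 to 200 counts. The ko HFD libraries were far below the ko normal libraries, and in wt only HFD replicate 1 was as low. The averaged fall was 5.88-fold (log2 -2.56, SE 0.407, adjusted p = 0.0136). Cyp2c40 was at 19.8, 9.09 and 6.64 CPM in wt normal, 18.3, 19.5 and 13.7 in ko normal, 2.95, 9.16 and 8.33 in wt HFD and 1.52, 2.76 and 2.76 in ko HFD. Its pattern was the same, with ko libraries apart by diet and wt libraries overlapping, and the fall was 3.55-fold (log2 -1.83, SE 0.324, adjusted p = 0.0237).

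The 2 other copies, Cyp2c67 and Cyp2c68, stood at higher levels and were not called for diet, and the difference between copies was not tested. Cyp2c67 was at 189, 93.7 and 90.2 CPM in wt normal, 249, 196 and 175 in ko normal, 175, 204 and 348 in wt HFD and 146, 169 and 205 in ko HFD, and its diets overlapped in both genotypes. The averaged diet change was 0.35 for Cyp2c67 (SE 0.224, adjusted p = 0.435) and -0.21 for Cyp2c68 (SE 0.216, adjusted p = 0.647). In ko, all 3 HFD libraries of Cyp2c68 were below the normal-diet libraries (log2 -0.55, SE 0.306, adjusted p = 0.868). Reads shared among these 4 genes could shift counts from one to another, and the part of that in their values was not tested. Cyp2c23 was just short of the threshold, lower on HFD by log2 -0.75 (SE 0.167, adjusted p = 0.0543), and Cyp2c37 was lower by log2 -0.81 (SE 0.234, adjusted p = 0.108), each without overlap in either genotype. Of the 13 Cyp2c genes, 7 had an unadjusted p under 0.05, all lower on HFD.

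Cyp2u1 rose 1.69-fold on HFD (log2 0.75, SE 0.162, adjusted p = 0.0486), and the values above show both genotypes apart by diet. Over all 6 HFD and 6 normal-diet libraries, no member was without overlap in either direction, where 0.734% of all genes were higher and 0.686% lower on HFD throughout.

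Within each genotype no Cyp2 gene passed the edgeR threshold for diet. In wt, where 0.693% of all genes were called, the smallest adjusted p was that of Cyp2u1 (log2 0.84, SE 0.231, adjusted p = 0.109), then Cyp2c67 (log2 0.96, SE 0.319, adjusted p = 0.165) and Cyp2d40 (log2 1.01, SE 0.358, adjusted p = 0.189). Cyp2d40 was at 80.9, 86.2 and 73.6 CPM in wt normal, 48.1, 159 and 149 in ko normal, 167, 180.4 and 135 in wt HFD and 141, 108 and 76.9 in ko HFD, so the diets were apart in wt and overlapped in ko. At an unadjusted p under 0.05 there were 6 members higher and 5 lower in wt, where 17% of all genes had such a p (8.49% higher, 8.51% lower), and DESeq2 called 1, with 4.56% of all genes. All HFD libraries of wt lay above the normal-diet libraries for 4 tested members (11.2% of all genes) and below for 5 (10.7%).

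In ko, where 0% of all genes were called, Cyp2c69 had the smallest adjusted p of the family (17.6-fold lower, log2 -4.14, SE 0.62, adjusted p = 0.0713), followed by Cyp2c40 (7.29-fold lower, log2 -2.87, SE 0.479, adjusted p = 0.122) and Cyp2c23 (log2 -0.85, SE 0.237, adjusted p = 0.585). At an unadjusted p under 0.05 there were 3 members higher and 4 lower, where 5.63% of all genes had such a p, 2.64% higher and 2.99% lower. DESeq2 called 2, with 0.251% of all genes, and edgeR fitted to the ko libraries alone also called 2. All HFD libraries of ko lay above the normal-diet libraries for Cyp2b9 and Cyp2u1 (5.45% of all genes) and below for 6 members (5.96%): Cyp2c23, Cyp2c37, Cyp2c40, Cyp2c68, Cyp2c69 and Cyp2g1. Cyp2b9 met the count rule only through HFD libraries and Cyp2g1 only through ko normal libraries. Their patterns here are therefore partly set by that rule.

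Of the diet calls, Cyp2c69 was called in 18 of 21 alternatives, Cyp2c40 in 16 and Cyp2u1 in 6. Leaving out 1 library gave 0 to 3 calls: 0 without ko HFD replicate 1, and 1 without ko normal replicate 1 or 2. For these fits too, the calls over all genes are not given here. Without the 3 libraries that stood apart there were 0, with Cyp2c69 at log2 -2.64 (adjusted p = 0.0929) and Cyp2c40 at -1.94 (adjusted p = 0.107). With the clock index there were also 0, with Cyp2c69 at log2 -2.06 (adjusted p = 0.127), Cyp2c40 at -1.51 (adjusted p = 0.194) and Cyp2u1 at 0.54 (adjusted p = 0.373).

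Whether the change from wt to ko differed between the diets was tested directly, and no member passed, as for 0% of all genes. The smallest p in the family was that of Cyp2c69 (log2 -3.16, SE 0.803, unadjusted p = 0.0018, adjusted p = 0.771), then Cyp2c40 (log2 -2.07, SE 0.639, adjusted p = 0.913) and Cyp2c67 (log2 -1.22, SE 0.449, adjusted p = 0.913). Cyp2a5 had a difference of 0.77 (SE 0.48, adjusted p = 0.988). In all, 4 members had an unadjusted p under 0.05, each with a negative sign, where 5.02% of all genes had such a p, 2.58% positive and 2.44% negative. DESeq2 called none, with 0.105% of all genes.

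Cyp2b10, the gene most used to read CAR activity, was high in 1 library only. It was at 0.0615, 0.809 and 0.613 CPM in wt normal, 0.348, 0.998 and 0.273 in ko normal, 0.240, 3.48 and 0.113 in wt HFD and 33.1, 0.115 and 3.26 in ko HFD. The 33.1 CPM of ko HFD replicate 1 came from 566 counts, while ko HFD replicate 2 had 2, and the next highest libraries were wt HFD replicate 2 and ko HFD replicate 3. No comparison called it: the averaged diet change was log2 2.87 (SE 1.06, adjusted p = 0.191) and the averaged ko change 1.68 (SE 1.06, adjusted p = 0.415). Its neighbour Cyp2b9, at no more than 2.21 CPM, was also not called for diet (log2 3.37, SE 0.985, adjusted p = 0.111). Cyp2b9 met the count rule only through HFD libraries.

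The same 3 libraries were high for the heme synthesis gene Alas1. Alas1, the rate-limiting enzyme of heme synthesis, was at 238, 246 and 521 CPM in wt normal, 214, 227 and 321 in ko normal, 505, 1125 and 439 in wt HFD and 1802, 284 and 1889.6 in ko HFD. The highest 3 values were those of ko HFD replicates 3 and 1 and wt HFD replicate 2. The reductase Por was highest at 949.6 CPM in wt HFD replicate 2 and 939 CPM in ko HFD replicate 1, while Cyp2c55 reached 2.92 CPM and the carboxylesterase Ces2a 584 CPM in ko HFD replicate 1, the highest of the 12 libraries for each. The transporter Abcc3, also a CAR target, did not peak there: it was at 109 CPM, below the 131 CPM of ko HFD replicate 3 and below all 6 normal-diet libraries, at 153 to 203 CPM. Cyp2c55 and Ces2a were chosen after their values were seen. The receptor Nr1i3 stayed at 43.1 to 72.4 CPM in all 12 libraries and Nr1i2 at 70.3 to 214 CPM. The acute phase gene Saa1 was at 15302 CPM in ko HFD replicate 1 and at 169 and 271 CPM in the other ko HFD libraries. In the 3 wt HFD libraries Saa1 was at 12324 to 13606 CPM and Cyp2b10 at 0.240, 3.48 and 0.113 CPM. The part of CAR activity and of the acute phase in the Cyp2b10 values was not tested.

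**Figure D5:**
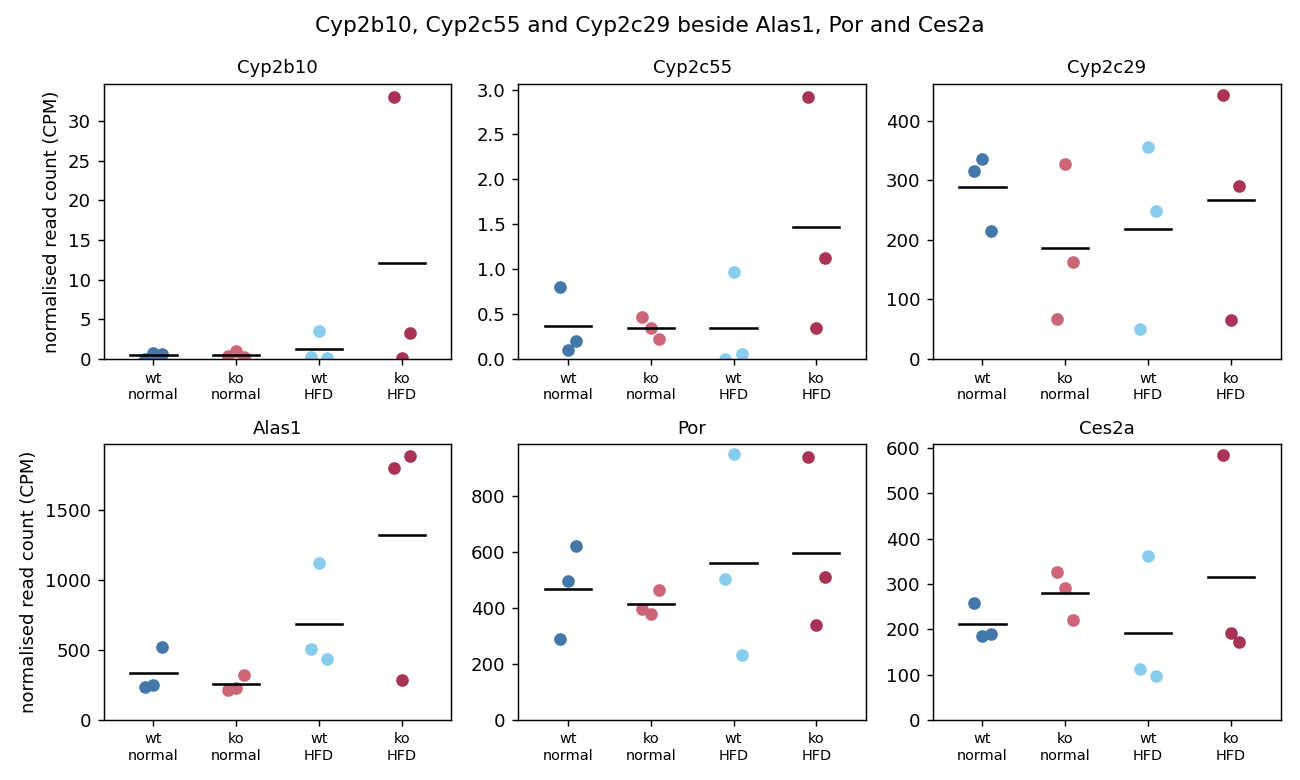
Level in every library, in CPM on axes from 0, of Cyp2b10, Cyp2c55, Cyp2c29, Alas1, Por and Ces2a. Dots are libraries and bars group means of 3. Cyp2b10 stands at 33.1 CPM in ko HFD replicate 1 and at 3.48 CPM or less in the other 11 libraries.

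Genes that work with or beside the family were described from lists. Of 14 genes for electron transfer and heme supply, 22 nuclear receptors and liver factors, 11 CAR targets outside Cyp2 and 18 other xenobiotic P450s that were tested, none was called for ko against wt averaged over diets. Their medians were 0.01, 0.11, 0.16 and 0.14 on the log2 scale. For HFD the called members were Foxa3 higher (log2 0.50), Tsku higher (log2 1.62), Gstm1 and Abcc3 lower (log2 -1.16 and -0.87), and the drug-metabolising Cyp3a11 and Cyp3a59 lower (log2 -2.77 and -2.32). Of 16 periportal markers 7 were lower on HFD, with a median of -0.67, and of 15 pericentral markers none was called in either averaged comparison. Beside them the periportal Cyp2f2 had a diet change of log2 -0.55 (SE 0.187, adjusted p = 0.153), and the pericentral Cyp2e1 one of 0.06 (SE 0.147, adjusted p = 0.876).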

How the data were processed

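Liver RNA was sequenced in 12 libraries, grouped by the genotype and diet in the labels, with 3 libraries a group. The deposited files hold whole-number read counts per Ensembl gene, 1 column a library. The submitters' processing notes list Bowtie 0.12.2, CASAVA 1.8 and the builds mm8 and mm9, with no role for either build. For the counting tool, annotation, strand use and reads with several matches, the setting is not given in the sources used here. Positions and gene models are from GENCODE M21 on GRCm38, looked up by identifier, and promoters from RefSeq on GRCm38.p6. They are not the authors' coordinates.

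Low genes were removed with filterByExpr, leaving 14433. CPM were scaled with TMM factors. edgeR 4.0.16 fitted the 4 groups over all 12 libraries by the two-sided quasi-likelihood test (8 residual and 4.66 prior degrees of freedom). In each of 7 comparisons p-values were adjusted over all 14433 genes (Benjamini-Hochberg), and 0.05 was the limit for a call. The test was tried on simulated data. Alternatives were DESeq2 1.42.0, other filters and scalings, fewer groups in the fit, a replicate block, each library left out, and the 2 named as chosen after seeing the data. Transcripts were compared by exact 50-base stretches, and motifs were searched in 250 bases upstream on both strands.

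The genes and lists were chosen with earlier results of these data known. Values of every library are given for Cyp2a5, Cyp2c69, Cyp2b10 and Cyp2e1, for every called member, for the highest member per length in each subfamily, and, where none was called, for the 3 members with the smallest p. Other genes appear by range or test alone. Outside the family, values are given for Trp53, called members of some lists (up to 4 a list) and a few genes beside results. Those given outside this rule (the per-library patterns of Cyp2a12, Cyp2d9, Cyp2c29 and Cyp2c55, and Ddx3y, Xist and Ces2a) were chosen after their values were seen. Other called list members are not named. They include the 7 periportal markers lower on HFD averaged over genotypes. Another is 1 of 14 male-biased genes outside Cyp2, called higher for ko averaged over diets.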

Additional observations from a re-analysis of the deposited data

How the results depend on the processing

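No named change reversed its sign in any of 21 alternatives. Without a filter on low counts, the members called were 5 for ko against wt on normal diet, 2 on HFD and 11 averaged, and 2 for HFD in wt, 2 in ko and 8 averaged. The genes called in all rose as well, to 648, 51, 644, 696, 21 and 489 in that order, from 30, 10, 168, 100, 0 and 150. DESeq2 called 7, 4, 12, 1, 2 and 6 members, of 529, 95, 860, 654, 36 and 807 genes. For ko against wt on HFD, 1 was called with DESeq2 size factors, with library totals without TMM, and with at least 10 counts in 3 libraries. Library totals without TMM gave 2 for the averaged ko comparison, and the fit to only the groups compared gave 2 for HFD in ko. Of the alternatives chosen after seeing the data, leaving out the 3 libraries that stood apart gave 2 for averaged ko and 0 for averaged HFD, and the clock index as a covariate gave 0 and 0. Apart from the averaged ko comparison with the clock index, the calls over all genes are not given for the other alternatives here and below. A change particular to Cyp2 therefore cannot be told from a general one in them. The cause was not tested.

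Leaving out each library gave 0 to 1 member for each of the 4 direct comparisons: 1 without wt normal replicate 1 (ko, normal diet), ko normal replicate 1 (ko, HFD), wt HFD replicate 3 (HFD, wt) and wt HFD replicate 1 (HFD, ko). The averaged ko count ran from 1 to 5. It was 1 without wt normal replicate 2 or 3 or wt HFD replicate 3, 2 without ko normal replicate 3, wt HFD replicate 2 or ko HFD replicate 3, and 3 without ko normal replicate 1 or 2 or ko HFD replicate 2. The averaged HFD count ran from 0 to 3, with 0 without ko HFD replicate 1 and 1 without ko normal replicate 1 or 2. The difference of the ko effects stayed at 0.

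With the replicate number as a block, 4 members were called for averaged ko and 2 for averaged HFD, and 0 in the other 5 comparisons. Over 18 same-number pairs the correlation of deviations ran from -0.209 to 0.332, and 4 pairs exceeded 0.1. Over pairs with other numbers it ran from -0.248 to 0.235. With 3 libraries a group, these values cannot show whether the numbers pair the libraries. Counts of at most 39 a library limit Cyp2a4, Cyp2b9, Cyp2c39, Cyp2g1 and Cyp2j8.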

Other observations

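Cyp2g1, the member with the lowest level per length, and Cyp2c70, at a middle level, were uneven among libraries. Cyp2g1 was at 0.0615, 0.381 and 0.0511 CPM in wt normal, 2.20, 0.599 and 0.654 in ko normal, 0, 0.452 and 0.170 in wt HFD and 0.175, 0.230 and 0.188 in ko HFD. Its ko normal libraries were the 3 highest, on at most 38 counts, and no comparison called it. Those are also the only libraries through which Cyp2g1 met the count rule, so this pattern is partly set by that rule. Cyp2c70, the enzyme that makes muricholic acids from chenodeoxycholic acid in mouse liver, ranged from 18.8 CPM in ko HFD replicate 2 to 298 CPM in wt HFD replicate 3, and its change was not called for genotype averaged over diets (edgeR adjusted p = 0.935) or diet averaged over genotypes (adjusted p = 0.31). Cyp2c70 was chosen after its values were seen.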
